A study of Mus musculus with 6 samples.

Results

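The HOX genes encode homeodomain transcription factors that lie in 4 clusters, HoxA, HoxB, HoxC and HoxD, and their expression was compared between methotrexate-selected and parental 4T1 breast cancer cells. Members were the genes whose symbol in the array's annotation reads Hox, a cluster letter from a to d and a number. This rule took 37 of the 19933 genes measured. Hoxb8 stood only on a probe set annotated to several genes, which was named for no gene. MR13 cells descend from 4T1 cells that outlived methotrexate, a folate antagonist that blocks nucleotide synthesis, and 3 arrays were made of them. In the labels, selection lasted until colonies of survivors could be seen, at most 2 weeks, in 13 µg/ml methotrexate, but the study's text gives a different concentration and a longer exposure, so both are uncertain. WTR- cells are untreated 4T1 cells, also with 3 arrays. Both groups are cultures of 1 line, 4T1, which was derived from a mammary carcinoma of a BALB/c mouse. MR13 is a single selected line. After selection the study kept the survivors without drug, but for the RNA samples the presence or absence of methotrexate is not stated in the labels. The labels describe triplicate wells, so P values measure the spread between wells and not between independent selections.

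HOX genes are known for giving cells their position along the axis of the embryo. Within a cluster the genes stand in the order in which they are used, from the low-numbered anterior genes to the high-numbered posterior genes, and genes with the same number in different clusters are paralogues. HOX proteins bind DNA together with TALE homeodomain cofactors of the PBX and MEIS families. Polycomb complexes hold the clusters silent, MLL (trithorax) complexes keep them active, and retinoic acid is a classical inducer of the anterior genes. In the mammary gland, HOX genes take part in growth of the epithelium.

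Expression differed widely between the lines. Values are on the log2 scale of the deposited table, where a difference of 1 is a 2-fold change, and differences are MR13 minus WTR-. A gene was called when its P value from limma, adjusted over all 19933 genes, was under 0.05, and by this rule 7497 genes (37.6%) were called, of which 3386 (17.0%) were higher and 4111 (20.6%) lower in MR13. Arrays of different groups differed with an SD of 0.473 to 0.504 across all genes, and arrays of the same group with an SD of 0.123 to 0.153. Of 10 epithelial markers measured, 8 were called lower and 1, Krt5, higher in MR13, with a median over the markers of 6.84 to 6.99 on the MR13 arrays, against 11.02 to 11.04 on the WTR- arrays. Krt8, a keratin of luminal epithelium, read 13.49, 13.61 and 13.49 in MR13, against 13.46, 13.42 and 13.34 in WTR-, and was not called. Of 10 fibroblast markers, Pdgfra and Dcn were called higher and 8, the collagens Col1a1, Col1a2 and Col3a1 among them, were not called, with a median difference of 0.08, and the log2 of the summed levels was 10.80 to 10.97 in MR13 and 9.81 to 9.91 in WTR-. Of 9 leukocyte markers 1, Ly6g, was called higher, with summed levels of 8.53 to 8.57 in MR13 and 8.43 to 8.46 in WTR-, and of 6 endothelial markers none was called. The epithelial markers and these 2 fibroblast markers moved with the comparison, and their part in the HOX values was not tested.

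Against this background, few HOX genes differed. Of the 37 members, 3 were called higher in MR13 (Hoxa13, Hoxc11 and Hoxc13), 1 was called lower (Hoxd4) and 33 were not called. The share called was 10.8%, where 37.6% of all genes were called. At an unadjusted P under 0.05 there were 7 members, and 8823 of all 19933 genes. None of the called members reached 1.5-fold, a size that 11.0% of all genes passed, or 2-fold, which 4.06% passed. The median size of the difference, regardless of direction, was 0.08 over the HOX genes (1.06-fold) and 0.13 over all genes (1.10-fold). Differences ranged from -0.37 to 0.54 and 25 of 37 were above 0, with a median of 0.06 over the family and 0.01 over all genes. In 9 members (24.3%) the 3 values of one group lay wholly outside the range of the other, which held for 47.4% of all genes. As bulk values, these cannot tell fewer expressing cells from less RNA per cell.

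**Figure D1:**
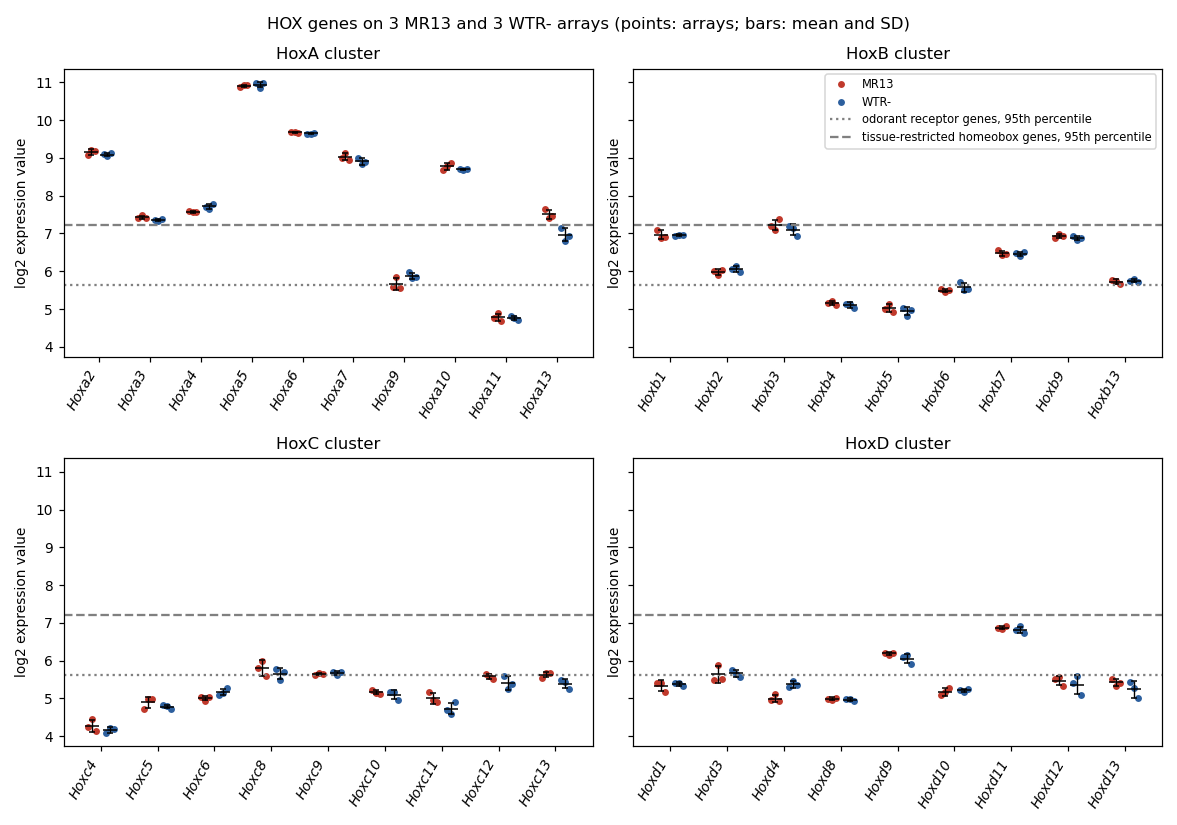
Log2 expression values of the 37 HOX genes, 1 panel per cluster, on 3 MR13 arrays (red, left of each pair) and 3 WTR- arrays (blue); points are arrays and bars the mean and SD. The dotted line is the mean over arrays of the 95th percentile of 1015 odorant receptor genes and the dashed line that of 18 tissue-restricted homeobox genes, and only HoxA genes lie above the dashed line on all 3 arrays of a group.

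The precision was enough to bound most of these differences. For all 33 members that were not called, the 95% confidence interval of the difference excluded a 1.5-fold change in either direction, and for 29 of them it excluded a 1.3-fold change. The widest bounds among them were -0.41, for Hoxa9, and 0.42, for Hoxd13. The median standard error (SE) of the difference was 0.068 over HOX genes and 0.065 over all genes. HOX values differed between arrays of the same group with an SD of 0.126 to 0.156 across the 37 genes, and between arrays of different groups with an SD of 0.140 to 0.220. Background signal is part of each value, so differences of dim genes are understated.

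Which members were expressed was judged against genes that mammary cells do not use. On each array the 95th percentile of 1015 odorant receptor genes, which are silent outside olfactory tissue, lay between 5.55 and 5.68. By this level 16 HOX genes in MR13 and 18 in WTR- were above background on all 3 arrays of the group. In MR13 these were 8 of 10 HoxA genes, 6 of 9 HoxB genes, 0 of 9 HoxC genes and 2 of 9 HoxD genes, and in WTR- they were 9, 6, 0 and 3 genes of the same clusters. The 2 that passed in WTR- alone were Hoxa9 and Hoxd3. Of the 20 members whose mean over all 6 arrays lay above the level, 1 (Hoxa13) was called, where 51.8% of all genes as bright were called. Of the 17 members below it, 3 were called, where 7.47% of such genes were. A stricter level, chosen after the values were seen, was the 95th percentile of 18 homeobox genes restricted to other tissues, such as Pdx1 of pancreas and Nkx2-1 of lung and thyroid, which lay between 7.13 and 7.32. Above it were 8 genes in MR13 and 7 in WTR-, and all were HoxA genes. Hoxa2, Hoxa3, Hoxa4, Hoxa5, Hoxa6, Hoxa7 and Hoxa10 passed in both groups, and Hoxa13 passed in MR13 alone. With 18 genes the level rests on the brightest few of them. Cdx1, the brightest, read 7.75, 7.84 and 7.68 in MR13, against 7.87, 7.70 and 7.75 in WTR-. It lay above Hoxa3 and Hoxa13 on every array, and above Hoxa4 on all but WTR- replicate 3. Expression of Hoxa3, Hoxa4 and Hoxa13 is therefore less certain than that of the others.

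None of the 7 HoxA genes that passed the stricter level in both groups was called. Their differences ran from -0.15 to 0.12, and no interval reached beyond -0.27 or 0.28. Hoxa5, which patterns the lung and acts in mammary epithelium, read 10.88, 10.93 and 10.93 in MR13, against 10.99, 10.85 and 10.99 in WTR-. The difference was -0.03 (interval -0.16 to 0.10, adjusted P = 0.724), and the values of the groups overlapped. Hoxa6, a gene of the thoracic region, read 9.70, 9.69 and 9.67 in MR13, against 9.65, 9.65 and 9.66 in WTR-. Although the MR13 values lay above all WTR- values, the difference was only 0.03 (interval -0.07 to 0.14, adjusted P = 0.644). Hoxa10, which is needed for uterine receptivity, read 8.68, 8.78 and 8.87 in MR13, against 8.70, 8.68 and 8.71 in WTR-. Hoxa2, the gene that specifies the second branchial arch, read 9.07, 9.22 and 9.19 in MR13, against 9.10, 9.04 and 9.12 in WTR-. In both of these genes the groups overlapped, with differences of 0.08 and 0.07. Hoxa7, another thoracic gene, read 9.01, 9.13 and 8.95 in MR13, against 8.99, 8.83 and 8.90 in WTR-, with a difference of 0.12 (adjusted P = 0.201).

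The other 2 bright genes of the cluster pointed in opposite directions without being called. Hoxa3, needed for thymus and parathyroid, read 7.41, 7.48 and 7.41 in MR13, against 7.35, 7.33 and 7.39 in WTR-, with no overlap between groups and a difference of 0.08 (adjusted P = 0.298). Hoxa4, a gene of the cervical vertebrae, read 7.59, 7.56 and 7.56 in MR13, against 7.69, 7.66 and 7.79 in WTR-. All 3 MR13 values lay below those of WTR- and the difference was -0.15 (interval -0.27 to -0.02, adjusted P = 0.0673). RefSeq's Hoxa3 gene overlaps Hoxa4, Hoxa5 and Hoxa6, and the files do not say which transcripts each probe set reads there. Among all genes brighter on average than the stricter level, 63.0% were called and 75.1% did not overlap between groups; of the 8 HOX genes that were as bright, 1 was called and 4 did not overlap.

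Hoxa13 had the largest difference of the family. This posterior gene, which patterns the digits and the urogenital tract, is represented by probe set 10544805 and read 7.64, 7.41 and 7.47 in MR13, against 7.15, 6.81 and 6.94 in WTR-. Every MR13 array was above every WTR- array. The means were 7.51 ± 0.118 in MR13 and 6.97 ± 0.175 in WTR- (SD, n = 3 each), a difference of 0.54 (SE 0.0955, interval 0.33 to 0.76), or 1.46-fold higher in MR13 (adjusted P = 0.00167). The call held in the 13 alternatives that changed the processing, the test or the arrays used, in which the difference lay between 0.46 and 0.64, but not with a minimum of 1.5-fold. Only quantile normalization, median centring and leaving out arrays changed the difference itself.

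Hoxd4 was the only member called lower. Hoxd4, an anterior gene that responds to retinoic acid in the hindbrain, is represented by probe set 10472970 and read 4.96, 5.11 and 4.93 in MR13, against 5.30, 5.46 and 5.35 in WTR-. The groups did not overlap. The means were 4.996 ± 0.0968 in MR13 and 5.37 ± 0.0834 in WTR- (SD, n = 3 each), so that Hoxd4 fell by 0.37 (SE 0.0690, interval -0.53 to -0.22, 1.3-fold lower, adjusted P = 0.00218). All 6 values lay under the odorant receptor level, so expression of this gene is not established, yet the call held in the 12 alternatives of processing, test or arrays that kept the gene, with differences of -0.43 to -0.33, but not with a minimum of 1.5-fold. RefSeq's Hoxd3 and Mir10b overlap Hoxd4. Hoxd3 read 5.49, 5.89 and 5.52 in MR13, against 5.76, 5.66 and 5.57 in WTR-, with overlapping groups and a difference of -0.03.

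The bases upstream of these genes are shown because Hoxa13 and Hoxd4 were the only members whose calls, in opposite directions, held in each alternative of processing, test or arrays that kept them. Both sequences are the 250 bases before the annotated transcript start in RefSeq on GRCm38.p6, written 5′ to 3′ in the direction of the gene with each CG in capitals, from chr6:52260881-52261130 (minus strand) for Hoxa13 and chr2:74721728-74721977 (plus strand) for Hoxd4.
Hoxa13: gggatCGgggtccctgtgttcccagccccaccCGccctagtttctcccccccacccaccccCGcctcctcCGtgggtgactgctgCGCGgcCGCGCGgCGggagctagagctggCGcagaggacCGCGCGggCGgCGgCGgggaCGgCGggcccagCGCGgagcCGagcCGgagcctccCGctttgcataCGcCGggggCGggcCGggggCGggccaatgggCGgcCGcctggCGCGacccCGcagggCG
Hoxd4: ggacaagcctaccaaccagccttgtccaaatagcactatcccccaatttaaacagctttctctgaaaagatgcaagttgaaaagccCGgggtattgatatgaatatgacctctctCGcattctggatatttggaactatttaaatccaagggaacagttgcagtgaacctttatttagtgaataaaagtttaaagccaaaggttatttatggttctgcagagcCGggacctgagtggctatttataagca
The Hoxa13 stretch holds 35 CG pairs and 80% G and C, and 2.97% of the 32851 such windows in the mouse table hold as many or more pairs. The Hoxd4 stretch holds 3 pairs and 40.4% G and C, and 37.8% of windows hold as few or fewer. A window was found for 21 of the 37 members (23 windows), with a median of 13 CG pairs, against 6 over all windows.

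**Figure D2:**
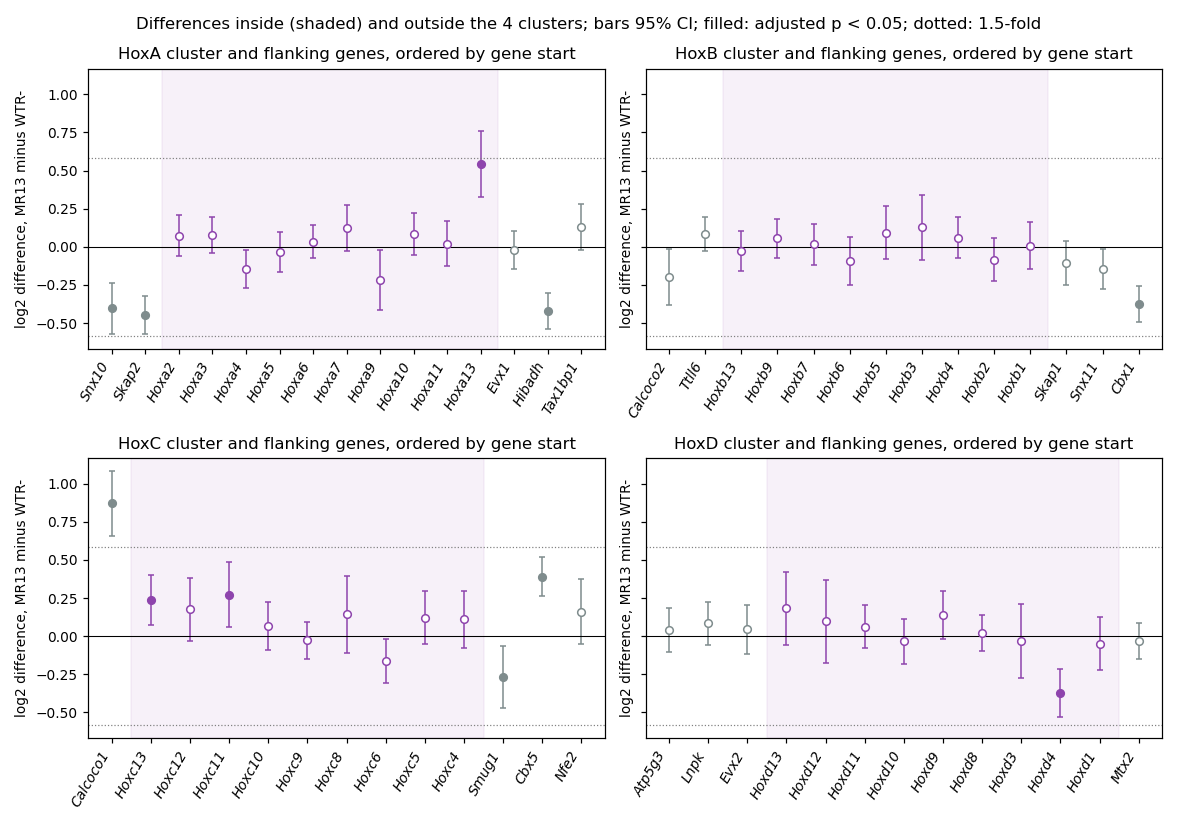
Log2 difference, MR13 minus WTR-, of each HOX gene (purple, shaded) and of genes flanking its cluster (grey), ordered by gene start in RefSeq; bars are 95% confidence intervals and filled points have an adjusted P under 0.05. All HOX points lie inside the dotted lines at 1.5-fold and most lie near 0, with Hoxa13 at 0.54 and Hoxd4 at -0.37. The flanking gene Calcoco1 lies outside the lines, at 0.87.

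Motifs were searched in these windows on both strands. AGGTCA, the hexamer bound by retinoic acid receptors, stood in 6 of the 23 HOX windows (26.1%), those of Hoxb4, Hoxc4, Hoxd3, Hoxd4, Hoxd8 and Hoxd10, and in 14% of all windows. TGATNNAT, a joint PBX and HOX site, stood in 3 (13%), those of Hoxa2, Hoxb1 and Hoxd11, and in 7.68% of all windows. TGACAG, a MEIS site, stood in 2 (8.7%), those of Hoxa2 and Hoxa3, and in 15.9% of all windows. A match in these letters does not show binding.

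The other called members belonged to HoxC and were dim. Hoxc13, which drives keratin genes of hair and nail, read 5.55, 5.67 and 5.67 in MR13, against 5.49, 5.43 and 5.26 in WTR-. The groups did not overlap and the difference was 0.24 (SE 0.0724, interval 0.07 to 0.40, adjusted P = 0.0309). Hoxc11, a posterior gene of the limb and lumbosacral region, read 5.16, 4.95 and 4.90 in MR13, against 4.70, 4.60 and 4.89 in WTR-. Here the closest values, MR13 replicate 3 and WTR- replicate 3, nearly touched, and the difference was 0.27 (SE 0.0934, interval 0.06 to 0.48, adjusted P = 0.0492). Neither was above the odorant receptor level on all 3 arrays of a group. The Hoxc13 call was lost without MR13 replicate 2 or 3 or WTR- replicate 2 or 3 (adjusted P between 0.0571 and 0.0966), and the Hoxc11 call without MR13 replicate 1 or 2 or WTR- replicate 1 or 2 (adjusted P between 0.0804 and 0.165). Without WTR- replicate 2, 2 HOX genes were called in all, 1 of them higher, and without MR13 replicate 2, 1 was called higher and 2 lower.

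The remaining HoxC genes were not called. Differences over the 9 genes of the cluster ran from -0.16 to 0.27 with a median of 0.12, and 7 of 9 were above 0. This median was 0.18 without MR13 replicate 3 and 0.07 without MR13 replicate 2. Hoxc6, which acts in the thorax and the mammary gland, read 5.03, 4.94 and 5.05 in MR13, against 5.10, 5.13 and 5.27 in WTR-. It was lower in every MR13 array, with a difference of -0.16 (adjusted P = 0.0740). Hoxc8, a gene of the brachial spinal cord, read 5.80, 6.002 and 5.59 in MR13, against 5.78, 5.49 and 5.70 in WTR-, and Hoxc12, a posterior gene, read 5.64, 5.60 and 5.51 in MR13, against 5.60, 5.24 and 5.38 in WTR-. Their groups overlapped, with differences of 0.14 and 0.17. Hoxc4, Hoxc5, Hoxc9 and Hoxc10 had differences of 0.11, 0.12, -0.03 and 0.07. Values in this cluster lay between 4.08 and 6.002.

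No HoxB gene was called. The 9 differences ran from -0.09 to 0.13 with a median of 0.02, and in all 9 genes the groups overlapped. Of all genes, 37.6% were called and 47.4% did not overlap between groups. Among genes brighter on average than the odorant receptor level, these shares were 51.8% and 63.0%. Hoxb3, an anterior gene of the hindbrain and neck, had the widest difference in the cluster and read 7.19, 7.10 and 7.38 in MR13, against 7.21, 7.15 and 6.93 in WTR-. Hoxb9, which acts with its paralogues in mammary growth during pregnancy, read 6.88, 6.99 and 6.95 in MR13, against 6.94, 6.83 and 6.88 in WTR-. Hoxb7, a gene often raised in human breast cancer, read 6.56, 6.43 and 6.46 in MR13, against 6.49, 6.40 and 6.51 in WTR-. In these genes the difference was 0.13, 0.05 and 0.02. Hoxb1, the gene of the fourth rhombomere, differed by 0.01, Hoxb2 by -0.08, Hoxb4, which is known for expanding blood stem cells, by 0.06, and Hoxb13, a gene of the prostate, by -0.03. Hoxb5 and Hoxb6 differed by 0.09 and -0.09. Hoxb4, Hoxb5 and Hoxb6 were not above the odorant receptor level on all 3 arrays of a group. Values in the cluster lay between 4.82 and 7.38.

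In HoxD, only Hoxd4 was called. The 9 differences ran from -0.37 to 0.18 with a median of 0.02. Hoxd9, which acts with Hoxa9 and Hoxb9 in mammary growth, read 6.21, 6.16 and 6.21 in MR13, against 6.10, 6.15 and 5.92 in WTR-. The groups did not overlap, but the difference of 0.14 was not called (adjusted P = 0.155). Hoxd11, a gene of the forearm and kidney, read 6.86, 6.84 and 6.93 in MR13, against 6.81, 6.91 and 6.73 in WTR-, with a difference of 0.06 and overlapping groups. Hoxd9 and Hoxd11 were the HoxD genes above the odorant receptor level in both lines. Hoxd13, which patterns the digits, read 5.51, 5.33 and 5.42 in MR13, against 5.44, 5.28 and 5.003 in WTR-. Its spread in WTR- was wide, and the difference of 0.18 had an interval of -0.06 to 0.42. Hoxd1, Hoxd8, Hoxd10 and Hoxd12 differed by -0.05, 0.02, -0.03 and 0.10.

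The genes were also arranged by position. Of all genes, 37.6% were called in either direction and 17.0% were called higher. Of 7 genes of paralogue groups 1 to 3, none was called and the median difference was 0.01. Of 14 genes of groups 4 to 8, 1 (Hoxd4) was called lower (7.14%) and the median was 0.03. Of 16 genes of groups 9 to 13, 3 were called higher (18.8%) and none lower, 12 of 16 differences were above 0, and the median was 0.07. Of these 3, Hoxc11 and Hoxc13 were the dim genes whose calls were lost when single arrays were left out. The classes were not tested against each other. The paralogues of group 13 differed by 0.54 in Hoxa13, 0.24 in Hoxc13, 0.18 in Hoxd13 and -0.03 in Hoxb13. Those of group 4 differed by -0.37 in Hoxd4, -0.15 in Hoxa4, 0.06 in Hoxb4 and 0.11 in Hoxc4. Not every posterior gene pointed up. Hoxa9, a regulator of blood progenitors, read 5.59, 5.85 and 5.55 in MR13, against 5.98, 5.83 and 5.84 in WTR-, with a difference of -0.22 (interval -0.41 to -0.02, adjusted P = 0.0787) and overlapping groups. Hoxa11, a gene of the uterus and forearm, read 4.77, 4.88 and 4.69 in MR13, against 4.804, 4.76 and 4.71 in WTR-, under the odorant receptor level on every array, with a difference of 0.02.

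The clusters also hold non-coding transcripts. Of 18 listed, 10 were measured, of which 2 (20.0%) were called lower and none higher, with a median difference of -0.06. Of all genes, 37.6% were called in either direction and 20.6% were called lower. Most of the 10 transcripts lay on average under the odorant receptor level, and 7.47% of all genes that dim were called. Hoxd3os1, a transcript opposite Hoxd3, read 5.72, 5.61 and 5.88 in MR13, against 5.91, 6.08 and 6.13 in WTR-, a fall of 0.30 (SE 0.0834, adjusted P = 0.0179) with no overlap between groups. Hoxaas2, whose gene overlaps Hoxa3, read 7.05, 6.89 and 7.002 in MR13, against 7.09, 7.20 and 7.32 in WTR-, a fall of 0.22 (SE 0.0736, adjusted P = 0.0421). In both transcripts the groups did not overlap, which the rule that named them required. The count of 2 depended on single arrays and was 0 without MR13 replicate 2, WTR- replicate 2 or WTR- replicate 3, and 1 without MR13 replicate 3. Whether these probe sets exclude signal of the overlapping HOX genes was not tested. Hottip, a transcript beyond Hoxa13 that is known in human cells to keep posterior HoxA genes active, read 5.10, 5.43 and 5.34 in MR13, against 5.11, 5.07 and 4.97 in WTR-, with a difference of 0.24 (adjusted P = 0.0574). It lay under the odorant receptor level on every array, so its expression is not established.

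MicroRNAs of the miR-10, miR-196 and miR-615 families lie inside the clusters, and miR-10 and miR-196 are known to target HOX transcripts. Their mature sequences are given because they show which loci share a seed (bases 2 to 8, in capitals), taken from RefSeq on GRCm38.p6.
mmu-miR-10a-5p: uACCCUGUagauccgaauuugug
mmu-miR-10b-5p: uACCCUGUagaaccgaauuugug
mmu-miR-196a-5p: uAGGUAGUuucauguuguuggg
mmu-miR-196b-5p: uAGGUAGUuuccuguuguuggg
mmu-miR-615-3p: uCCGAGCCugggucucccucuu
The positions given here are those of the mature sequences and not of the whole genes. The mature sequences of the miR-10 pair, from Mir10a at chr11:96317186-96317208 and Mir10b at chr2:74726074-74726096, both on the plus strand, share 1 seed. Those of miR-196 share another, from Mir196a-1 at chr11:96265187-96265208, Mir196a-2 at chr15:102973365-102973386, both on the plus strand, and Mir196b at chr6:52230129-52230150 on the minus strand. That of Mir615, at chr15:103014969-103014990 on the plus strand, has its own. The arrays read precursor transcripts and not mature microRNAs. None of the 6 loci was called, with differences of -0.15 to 0.14, where 37.6% of all genes were called. Only Mir615, which overlaps Hoxc5, was above the odorant receptor level. The other loci lay under it on every array, and 7.47% of all genes that dim on average were called. Low signal therefore limits what the missing calls can say about these loci. Mir10b, which overlaps Hoxd4, read 3.07, 3.15 and 3.05 in MR13, against 3.21, 3.18 and 3.35 in WTR-, with a difference of -0.15 (adjusted P = 0.0826) and no overlap. Mir10a read 2.91, 3.12 and 3.10 in MR13, against 3.33, 3.12 and 3.09 in WTR-, and Mir615 read 7.66, 7.68 and 7.68 in MR13, against 7.68, 7.53 and 7.40 in WTR-. In both the groups overlapped. Mir196b, Mir196a-1 and Mir196a-2 differed by -0.03, -0.10 and 0.03.

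Genes just outside the clusters were called about as often as all genes tested, but less often than bright genes. Of 18 flanking genes measured, 2 were called higher and 5 lower (38.9%, against 37.6% of all genes). Most of the 18 were brighter on average than the odorant receptor level, above which 51.8% of all genes were called. At HoxA, Skap2, an adaptor protein gene next to the anterior end, read 9.74, 9.74 and 9.83 in MR13, against 10.22, 10.17 and 10.26 in WTR-, a fall of 0.45 (SE 0.0541, adjusted P = 0.000174). Snx10, a sorting nexin gene 1 further out, differed by -0.40 (adjusted P = 0.00215). Beyond the posterior end, Hibadh, a gene of valine breakdown, read 10.80, 10.80 and 10.72 in MR13, against 11.21, 11.16 and 11.20 in WTR-, a fall of 0.42 (SE 0.0511, adjusted P = 0.000183). In Skap2, Snx10 and Hibadh the groups did not overlap, which the rule that named Skap2 and Hibadh required. Evx1, a homeobox gene next to Hoxa13, differed by -0.02 and Tax1bp1 by 0.13, and neither was called. Whether flanking and HOX genes differed in their response was not tested.

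At HoxC, Calcoco1, a coactivator gene next to Hoxc13, read 9.66, 9.76 and 9.66 in MR13, against 9.01, 8.84 and 8.61 in WTR-. The difference was 0.87 (SE 0.0944, adjusted P = 9.1e-05), 1.83-fold higher in MR13, and the WTR- values were the more spread. On the Hoxc4 side, Cbx5, which encodes the heterochromatin protein HP1 alpha, differed by 0.39 (adjusted P = 0.000536), and Smug1, a DNA repair glycosylase gene, by -0.27 (adjusted P = 0.0452). Beyond HoxB, Cbx1, which encodes HP1 beta, differed by -0.37 (adjusted P = 0.000451). The 4 HoxD flanking genes measured, Evx2, Lnpk, Atp5g3 and Mtx2, were not called, with differences of 0.04, 0.09, 0.04 and -0.03. Snx10, Cbx5, Smug1 and Cbx1 were named after their values were seen.

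The TALE cofactors of HOX proteins included Meis2, which was called higher. Of 9 measured, 4 were called higher, 1 lower and 4 not (55.6% called, against 37.6% of all genes and 51.8% of those above the odorant receptor level), and the median difference was 0.14. Meis2, which binds DNA alongside HOX proteins, read 8.50, 8.61 and 8.50 in MR13, against 7.55, 7.51 and 7.52 in WTR-. The difference was 1.01 (SE 0.0536, adjusted P = 1.13e-06), 2.01-fold higher in MR13, and the 3 values of each group lay close together. Pbx3, a partner of HOX proteins in leukaemia, read 10.90, 10.97 and 11.02 in MR13, against 10.24, 10.32 and 10.24 in WTR-, a rise of 0.70 (SE 0.0551, adjusted P = 1.27e-05). Pbxip1, whose product binds PBX proteins and blocks their contact with DNA, read 7.56, 7.56 and 7.70 in MR13, against 7.30, 7.32 and 7.28 in WTR-, a rise of 0.31 (SE 0.0579, adjusted P = 0.00248). In these 3 genes the groups did not overlap, which the rule that named them required. Meis1 was called with a difference of 0.19 (adjusted P = 0.0152) and Meis3 with -0.18 (adjusted P = 0.0432), and Pbx2, Pbx4, Pknox1 and Pknox2 were not called. Without WTR- replicate 1 the list had 3 called genes.

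**Figure D3:**
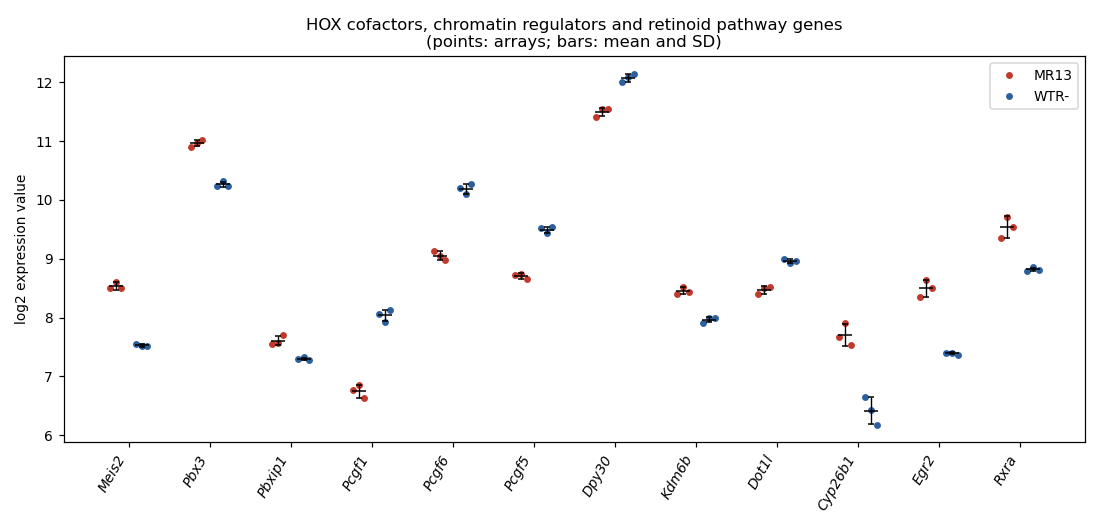
Log2 expression values of the genes named from the cofactor, Polycomb, trithorax and patterning lists on 3 MR13 arrays (red, left of each pair) and 3 WTR- arrays (blue); points are arrays, bars the mean and SD. The genes were chosen by a rule that required groups without overlap. Meis2 was 1.01 higher and Pcgf1 1.29 lower in MR13 on the log2 scale.

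Genes that silence or maintain HOX clusters were called in both directions. Of 28 Polycomb genes measured, 6 were called higher and 8 lower (50.0%), against 37.6% of all genes and 51.8% of genes above the odorant receptor level, with a median difference of -0.05. All 28 were brighter on average than the stricter homeobox level, above which 63.0% of all genes were called. The named genes were 3 PCGF subunits that define variant forms of Polycomb complex 1. Pcgf1 read 6.76, 6.85 and 6.63 in MR13, against 8.06, 7.93 and 8.12 in WTR-, a fall of 1.29 (SE 0.0754, 2.45-fold lower, adjusted P = 2.04e-06). Pcgf6 read 9.14, 9.04 and 8.98 in MR13, against 10.20, 10.11 and 10.28 in WTR-, a fall of 1.14 (SE 0.0654, adjusted P = 1.83e-06). Pcgf5 read 8.72, 8.73 and 8.65 in MR13, against 9.52, 9.43 and 9.53 in WTR-, a fall of 0.79 (SE 0.0547, adjusted P = 5.54e-06). In all 3, each MR13 array was below each WTR- array, and the rule that named them required groups without overlap. Of the PCGF subunits of the canonical form, Bmi1 differed by -0.12 and Pcgf2 by 0.05, and neither was called. Among the PHC, CBX and RING subunits of Polycomb complex 1, Phc1 was called with -0.32 (adjusted P = 0.00265) and Ring1 with -0.27 (adjusted P = 0.0128). Rnf2 was called with 0.18 (adjusted P = 0.0262), and Phc2, Phc3, Cbx2, Cbx7 and Cbx8 were not called. Of the core of Polycomb complex 2, Ezh2, the main methyltransferase, was called with a difference of -0.18 (adjusted P = 0.0298), and Eed and Suz12, with -0.06 and 0.08, were not. Phf19, an accessory subunit, rose by 0.56 (adjusted P = 2.06e-05).

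Of 14 genes of the MLL and trithorax list, 6 were called higher and 5 lower (78.6%, against 37.6% of all genes and 51.8% of those above the odorant receptor level), with a median of 0.10. All 14 were also brighter on average than the stricter homeobox level, above which 63.0% of all genes were called. Dpy30, a subunit shared by the MLL complexes, read 11.42, 11.54 and 11.54 in MR13, against 12.002, 12.08 and 12.14 in WTR-, a fall of 0.58 (SE 0.0610, adjusted P = 7.9e-05). Kdm6b, a demethylase that removes the Polycomb mark, read 8.41, 8.53 and 8.43 in MR13, against 7.91, 7.99 and 7.998 in WTR-, a rise of 0.49 (SE 0.0566, adjusted P = 0.000133). Dot1l, a histone methyltransferase active at HOX genes in MLL leukaemia, read 8.40, 8.51 and 8.52 in MR13, against 9.002, 8.92 and 8.95 in WTR-, a fall of 0.48 (SE 0.0566, adjusted P = 0.000142). Groups did not overlap in these genes, which the rule that named them required. Kmt2a, which encodes MLL1 itself, was called with 0.34 (adjusted P = 0.00343), its relative Kmt2b with -0.25 (adjusted P = 0.00595) and Men1, which encodes the menin that ties both to HOX genes, with -0.37 (adjusted P = 0.00166). Phc1, Ring1, Rnf2, Ezh2, Phf19, Kmt2a, Kmt2b and Men1 were picked with their values known.

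Upstream signals were measured by 19 genes, of which 5 were called higher and 2 lower (36.8%, against 37.6% of all genes), with a median of 0.07. Cyp26b1, an enzyme that degrades retinoic acid, read 7.66, 7.91 and 7.54 in MR13, against 6.65, 6.42 and 6.18 in WTR-. The difference was 1.28 (SE 0.129, adjusted P = 5.63e-05), 2.44-fold higher in MR13. The arrays were spread within groups, and the rule that named the gene required groups without overlap. Egr2, a hindbrain activator of Hoxa2 and Hoxb2 that also responds to growth factors, read 8.34, 8.64 and 8.51 in MR13, against 7.40, 7.40 and 7.37 in WTR-, a rise of 1.11 (SE 0.0759, adjusted P = 5.41e-06). Rxra, the partner of retinoic acid receptors, read 9.35, 9.71 and 9.54 in MR13, against 8.79, 8.85 and 8.81 in WTR-, a rise of 0.72 (SE 0.0873, adjusted P = 0.000185). Hoxa2 and Hoxb2 themselves differed by 0.07 and -0.08. The other receptors were named after their values were seen. Rara and Rarg rose by 0.55 and 0.35 (adjusted P = 4.44e-05 and 0.00119), but Rxrb was called lower, with a difference of -0.31 (adjusted P = 0.0100). Rarb and Rxrg, under the odorant receptor level on every array, were not called. Gdf11, a signal for posterior HOX genes in the trunk, differed by -0.32 (adjusted P = 0.0170), and the CDX genes, which activate HOX genes in the tail bud, were not called, with differences of -0.01, 0.11 and -0.13 for Cdx1, Cdx2 and Cdx4.

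**Figure D4:**
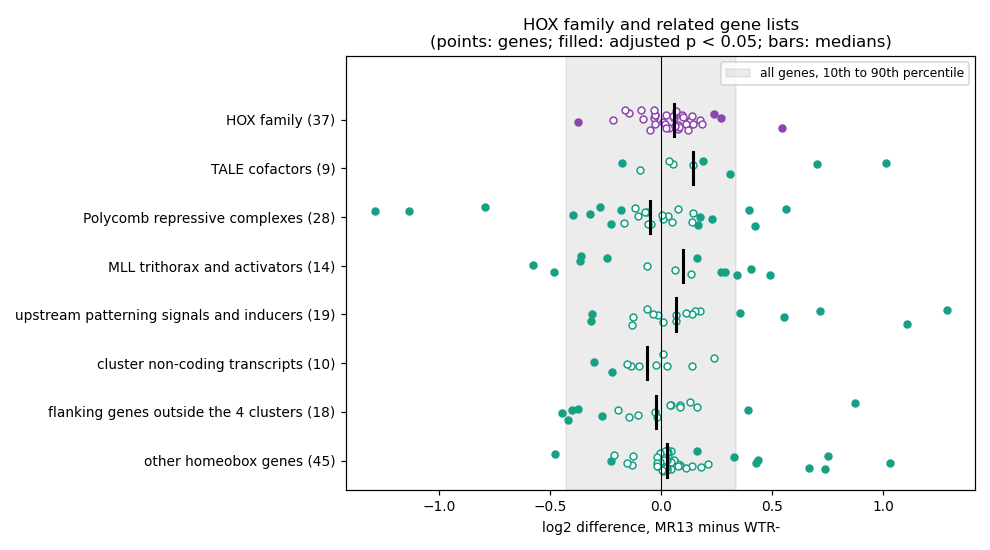
Log2 difference, MR13 minus WTR-, of every measured gene of the HOX family (purple) and of 7 related lists (green), with the number measured in brackets; filled points have an adjusted P under 0.05, black bars are medians and the grey band spans the 10th to 90th percentile of all genes (-0.43 to 0.34). Hoxa13 is the only HOX gene outside the band.

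Other homeobox genes included members with larger differences than any HOX gene. Of 45 measured, 8 were called higher and 2 lower (22.2%, against 37.6% of all genes), with a median of 0.03. Dlx1, a gene of the forebrain and jaw, read 8.72, 8.82 and 8.79 in MR13, against 7.83, 7.78 and 7.64 in WTR-, a rise of 1.03 (SE 0.0651, adjusted P = 3.27e-06). Pitx1, which specifies the hindlimb, read 9.40, 9.60 and 9.50 in MR13, against 8.75, 8.73 and 8.77 in WTR-, a rise of 0.75 (SE 0.0617, adjusted P = 1.71e-05). Six4, a gene of muscle progenitors, read 9.33, 9.39 and 9.45 in MR13, against 8.66, 8.56 and 8.74 in WTR-, a rise of 0.74 (SE 0.0637, adjusted P = 2.24e-05). Groups did not overlap in these genes, which the rule that named them required. Of the 18 homeobox genes restricted to other tissues, which served as the stricter background, none was called and 1 had an unadjusted P under 0.05.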

How the data were processed

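Total RNA of 6 cultures of 4T1 cells, 3 MR13 and 3 WTR-, was measured, after biotin labelling, on Affymetrix arrays of the type Mouse Gene 1.0 ST. The deposited values were log2 expression values, 1 per transcript-level probe set, that the authors had normalized between arrays. The submitters' processing notes name affy and limma. Their versions, the background correction and the normalization method are not given in the sources used here. That the scale is log2 follows from the range of the values, 2.42 to 14.4, and array medians lay between 6.57 and 6.62. Groups and replicate numbers came from the sample titles, and 0 columns belonged to another series.

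The table held 28350 probe sets, of which 21780 had 1 gene symbol, 1618 several and 4952 none here. Each gene was read from its brightest probe set by the mean of the 6 arrays, which gave 19933 genes. All 37 HOX genes had 1 such probe set and matched RefSeq (GRCm38.p6) by symbol and Entrez identifier. MR13 was compared with WTR- by limma 3.58.1 in R 4.3.3 (lmFit and eBayes, two-sided, no covariate), with Benjamini-Hochberg adjustment over all genes. Intervals cover 95%. The number of arrays, 3 per group, limits the precision. The fit was tested on simulated data.

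The members and the gene lists were chosen with earlier results of these data known. Every HOX gene was named. From each other list the rule took the 3 called genes with the largest difference whose groups did not overlap, and genes outside it were named with their values known. Cell type markers were described by their counts. No list was tested as a set.

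The alternatives were quantile normalization, median centring, dropping the dimmest 30% of genes, averaging probe sets of the same gene, testing all probe sets, a trended robust prior, the replicate number as a block, the t-test named in the study's methods, minimum folds of 1.5 and 2, leaving out each array, and other background genes or percentiles. Replicate numbers were not taken as pairs, and nothing in the labels says that they mark a shared day or batch.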

Additional observations from a re-analysis of the deposited data

How the results depend on the processing

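Hoxa13 and Hoxd4 kept their direction and their call in the alternatives of normalization, filter, prior, test, block and arrays left out that kept them, but not under the minimum folds. No called member changed sign. The filter, the prior, the averaging of probe sets, the block and the t-test left the differences of HOX genes unchanged and could alter only their P values. Hoxd4 was not tested where the dimmest 30% of genes were left out. Apart from the minimum folds, 28 of the other members were called in no alternative and 7, Hoxc11 and Hoxc13 included, in some. In 10 members that were not called the sign of the difference changed in at least 1 alternative. Under quantile normalization 2 HOX genes were called lower and the HoxA median was 0.10, with Hoxa9 and Hoxa10 called and Hoxc11 not (adjusted P = 0.0825). The methods' t-test called 2 HOX genes after adjustment, 1 of them higher, and 5 at an unadjusted P under 0.05, where it called 6524 and 8140 of all genes. With a minimum of 1.5-fold or 2-fold the HOX counts were 0 called, 0 higher and 0 lower. The count of called non-coding transcripts was 1 under quantile normalization, median centring or the block, and 0 under the t-test.

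With single arrays left out, the HOX counts ran from 2 to 4 called, 1 to 3 higher and 1 to 2 lower. The family's median ran from 0.02 to 0.07, lowest without WTR- replicate 3, and those of HoxB and HoxD from -0.02 to 0.04, across 0. The HoxC median ran from 0.0705 to 0.177, called TALE cofactors from 3 to 5 and called non-coding transcripts from 0 to 3. With the replicate number as a block 7442 of all genes were called, against 7497 without, and Hoxc11 lost its call (adjusted P = 0.0557). Deviations of same-numbered arrays correlated at 0.13, -0.0012 and 0.18, and the numbers were not taken as pairs. The WTR- array that correlated best was replicate 1 for MR13 replicates 1 and 2, and replicate 3 for MR13 replicate 3. With so few arrays, these correlations cannot decide whether the numbers mark a shared batch.

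The count of HOX genes above background depended on the background chosen. It was 26 in MR13 and 25 in WTR- at the 90th percentile of odorant receptor genes, 36 and 36 against vomeronasal receptor genes, and 8 and 7 against the tissue-restricted homeobox genes, a level added after the data were seen. Low signal limits what can be said of HoxC, where no gene was above the odorant receptor level in either line.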
